A study of Mus musculus with 84 samples.

Results

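Acute phase genes were followed in the liver and the epididymal white adipose tissue (eWAT) of diet-induced obese mice. The set held 10 genes, taken by symbol from the 48794 gene identifiers listed in each tissue: the serum amyloid A genes Saa1, Saa2 and Saa3, the lipocalin family genes Orm1, Orm2 and Lcn2, the pentraxins Crp and Apcs, the haemoglobin-binding Hp, and Itih4. All 10 were found, and all 10 passed the filter on low values in both tissues. RNA-seq had been run on 42 liver and 42 eWAT libraries of male C57BL/6J mice fed a diet with 60% fat, 22 weeks old at the start. The groups were vehicle, BI 456906 (a peptide agonist of both the glucagon receptor and the GLP-1 receptor) at 3, 10, 20 or 30 nmol/kg, and semaglutide (a GLP-1 receptor agonist) at 20 or 100 nmol/kg. Each compound was injected under the skin daily for 30 days, each group held 11 mice, and 6 libraries per tissue and group were analysed. Sample titles write semaglutide as EX10970, and the treatment label names the molecule. The vehicle mice were obese too, so every difference below is against an obese, untreated state, and no lean group was part of these data. The labels do not say that the libraries came from separate mice, and the p-values measure the spread between these libraries.

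Acute phase proteins are plasma proteins, mostly made by hepatocytes, whose synthesis changes during infection, injury or inflammation. Interleukin-6 acting through STAT3, and interleukin-1 and TNF acting through NF-kB and the C/EBP factors, are the classical inducers. In the mouse, serum amyloid A is the strongly inducible member of the group, whereas Crp is only weakly inducible. Several members are also made outside the liver: adipocytes and macrophages express Saa3, adipocytes express Hp and Orm1, and neutrophils and epithelia express Lcn2.

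The genes sit in clusters. Saa1 and Saa2 lie head to head on chromosome 7, 8809 bp apart, with Saa3 on the same chromosome 24796 bp beyond Saa1. Orm1 and Orm2 lie 14285 bp apart on chromosome 4, and Crp and Apcs 60929 bp apart on chromosome 1. RefSeq promoter sequences (GRCm38.p6) were at hand for 8 of the 10 genes, Orm1 and Hp being the ones without an entry. Shown here are the bases upstream of the annotated start of the serum amyloid A genes, of Orm2 and of Itih4. The serum amyloid A genes share a cluster, and Saa1 and Saa2, but not Saa3, varied closely together across mice. Orm2 tested lower in some, but not all, treated groups of each tissue. Itih4 was higher in liver in every treated group. Capitals mark matches to the letters TTNNGNAA (C/EBP), TTCNNNGAA (STAT), GGNNTTTCC (NF-kB) and a TATA box spelled TATAAA, on either strand, and each sequence runs 5′ to 3′ on the gene's own strand. Saa1 is shown from chr7:46743024-46743180 (minus strand), Saa2 from chr7:46751633-46751789 (plus), Saa3 from chr7:46715720-46715876 (minus), Orm2 from chr4:63362249-63362448 (plus) and Itih4 from chr14:30886276-30886475 (plus).
Saa1: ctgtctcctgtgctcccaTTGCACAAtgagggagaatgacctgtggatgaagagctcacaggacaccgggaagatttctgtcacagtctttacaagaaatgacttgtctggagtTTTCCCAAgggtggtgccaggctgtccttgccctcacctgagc
Saa2: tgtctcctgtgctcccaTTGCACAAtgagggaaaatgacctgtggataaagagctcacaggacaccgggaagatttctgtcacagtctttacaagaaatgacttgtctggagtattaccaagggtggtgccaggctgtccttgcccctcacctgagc
Saa3: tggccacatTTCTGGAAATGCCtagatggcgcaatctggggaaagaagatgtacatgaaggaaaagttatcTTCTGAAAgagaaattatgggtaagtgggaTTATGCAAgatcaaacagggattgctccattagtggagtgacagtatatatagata
Orm2: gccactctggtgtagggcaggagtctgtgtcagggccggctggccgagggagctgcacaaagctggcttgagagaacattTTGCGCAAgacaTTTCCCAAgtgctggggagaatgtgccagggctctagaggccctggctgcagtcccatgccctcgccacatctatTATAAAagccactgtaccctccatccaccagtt
Itih4: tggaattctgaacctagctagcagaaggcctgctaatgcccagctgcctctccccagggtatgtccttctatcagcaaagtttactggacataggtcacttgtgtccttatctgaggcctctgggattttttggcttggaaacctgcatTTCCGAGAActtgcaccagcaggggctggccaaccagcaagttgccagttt

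Saa1 and Saa2 carried nearly the same letters, with the C/EBP match at -182 to -175 in Saa1 and at -183 to -176 in Saa2, and a second match at -86 to -79 in Saa1 only. Saa3 held 4 C/EBP matches within 250 bases, and an NF-kB match at -187 to -179 that overlapped one of them. Orm2 had C/EBP matches at -120 to -113 and -108 to -101 and a TATA box at -33 to -28. Itih4 had a STAT match at -51 to -43. Among 32851 promoters, 36.8% held the C/EBP letters within the same 250 bases, 7.02% the STAT letters, 4.93% the NF-kB letters and 12.4% the TATA box. A match describes letters in a window, and binding was not measured.

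In vehicle liver, Hp was the most abundant member, at 4799 ± 678 TPM (transcript abundance scaled for gene length and library size, SD, n = 6 here and for every mean below). Itih4 (923 ± 103 TPM) and Orm1 (775 ± 41.6 TPM) followed, each apart from its neighbours. Next came Saa1 (337 ± 87.7 TPM), Crp (295 ± 13.8 TPM) and Saa2 (199 ± 59.6 TPM), whose ranges overlapped from one to the next. Apcs (89.7 ± 11.7 TPM), Lcn2 (58.6 ± 18.6 TPM), Orm2 (34.99 ± 13.8 TPM) and Saa3 (16.7 ± 11.6 TPM) closed the order. Apcs lay apart from Saa2, and from Apcs to Saa3 the ranges again overlapped from one to the next. In vehicle eWAT, Hp (2655 ± 658 TPM) and Orm1 (293 ± 117 TPM) led, and Saa3 came next at 48.9 ± 18.6 TPM. The other 7 members averaged 27.9 TPM or less in eWAT, with overlapping ranges. Levels in the 2 tissues come from tables scaled separately and were not tested against each other.

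**Figure D1:**
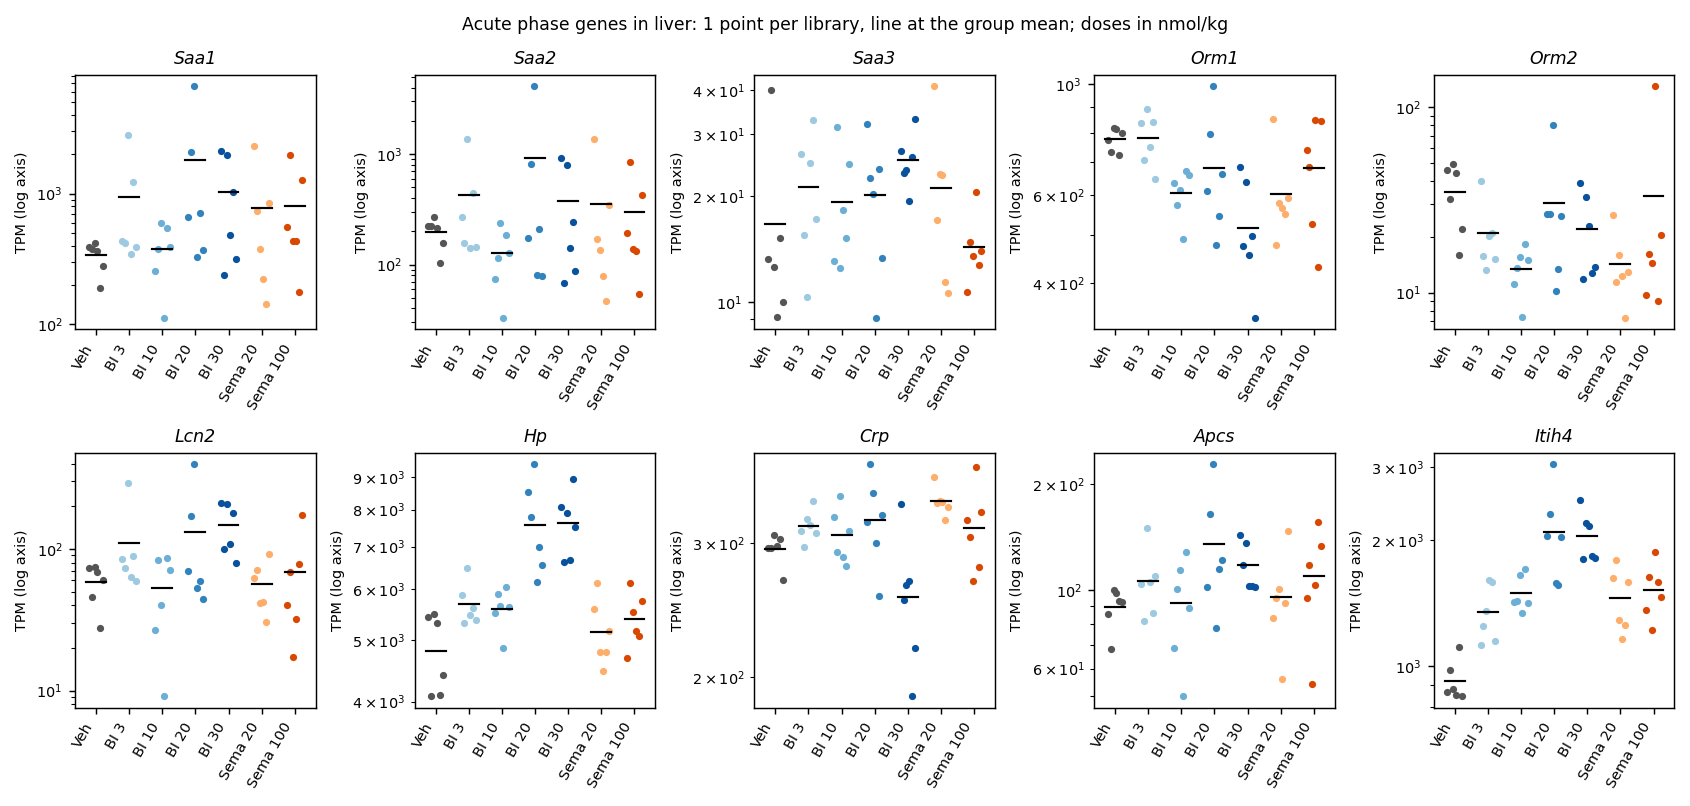
TPM of the 10 genes in liver on log axes, 1 panel per gene, with 1 point per library and a line at each group mean. Itih4 lies above all vehicle points in the 6 treated groups, and Saa1 and Saa2 have single libraries far above the rest of their group.

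Itih4 and Hp, a plasma protein of the inter-alpha-trypsin inhibitor family and the haemoglobin scavenger haptoglobin, rose in liver under BI 456906. Itih4 ranged from 847 TPM through a median of 874 to 1108 TPM in vehicle, and from 1805 through 1996 to 2498 TPM at 30 nmol/kg. All 6 libraries at 30 nmol/kg lay above all 6 vehicle libraries. The difference was 1.13 on the log2 scale (standard error 0.14, adjusted p = 5.40e-09). Adjusted p-values here and below come from limma/voom with the Benjamini-Hochberg method over all genes tested, and a value of at most 0.05 passed.

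Itih4 was the member that passed in every treated group of liver. Its mean was 1345 TPM at 3 nmol/kg BI 456906 (log2 difference 0.53, adjusted p = 0.00805), 1495 TPM at 10 nmol/kg (0.65, adjusted p = 0.000206) and 2098 TPM at 20 nmol/kg (1.12, adjusted p = 2.07e-08). Semaglutide gave 1453 TPM at 20 nmol/kg (0.62, adjusted p = 0.000253) and 1524 TPM at 100 nmol/kg (0.71, adjusted p = 4.06e-05). In each of these 5 groups all 6 libraries lay above every vehicle library. Over the BI 456906 doses the fitted slope was 0.34 log2 units per 10 nmol/kg (adjusted p = 1.35e-09). The call at 3 nmol/kg was lost in a fit of only those 2 groups, in which no member passed.

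Hp rose at the higher BI 456906 doses. It ran from 4079 through 4854 to 5488 TPM in vehicle, from 6158 through 7392 to 9414 TPM at 20 nmol/kg, and from 6618 through 7706 to 8932 TPM at 30 nmol/kg. Neither of those dose groups overlapped with vehicle, and the differences were 0.55 (adjusted p = 8.53e-06) and 0.59 (adjusted p = 1.27e-06) on the log2 scale. Under semaglutide the median was 4973 TPM at the lower and 5345 TPM at the higher dose, and neither dose passed (0.02, adjusted p = 0.902, and 0.10, adjusted p = 0.376).

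Orm1 and Crp were lower in liver at 30 nmol/kg BI 456906. Orm1, which encodes an orosomucoid that binds basic drugs and other small ligands in plasma, ran from 720 through 786 to 815 TPM in vehicle and from 341 through 486 to 683 TPM at 30 nmol/kg. The ranges did not overlap, and Orm1 fell by 0.69 on the log2 scale (adjusted p = 0.000424). It also fell at 10 nmol/kg, to a mean of 607 TPM (-0.48, adjusted p = 0.0197), and with semaglutide at 20 nmol/kg, to 602 TPM (-0.48, adjusted p = 0.0168). Those calls rested on few libraries: without vehicle library 48 or the 10 nmol/kg library 58 the adjusted p was 0.0552 to 0.0577, and without the semaglutide library 74 it was 0.0608. At 20 nmol/kg BI 456906 the mean was 680 ± 187 TPM, which did not pass but did without library 63 (adjusted p = 0.0221), and at 100 nmol/kg semaglutide it was 678 ± 170 TPM (adjusted p = 0.126).

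Crp, the C-reactive protein gene, had a narrow vehicle range of 268 through 297 to 307 TPM. At 30 nmol/kg it ran from 189 through 258 to 338 TPM, overlapping with vehicle, and passed with a log2 difference of -0.30 (adjusted p = 0.00606). Its means in the other 5 treated groups lay between 307 and 341 TPM. Crp passed in none of those 5. At 20 nmol/kg semaglutide its range of 322 to 367 TPM lay above every vehicle library. In a fit of only that group and vehicle, Crp did pass.

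Orm2, the second orosomucoid gene, fell at 10 nmol/kg BI 456906 and at 20 nmol/kg semaglutide. Its vehicle range of 16.1 through 38.1 to 49.6 TPM compared with 7.42 through 14.2 to 18.2 TPM (log2 difference -1.42, adjusted p = 0.0135) and 7.31 through 12.6 to 26.2 TPM (-1.39, adjusted p = 0.0122). At 100 nmol/kg semaglutide 1 library decided the value: library 82 had 130 TPM and the other 5 had 8.97 to 20.3 TPM. With it the difference was -0.80 (adjusted p = 0.111), and without it -1.33 (adjusted p = 0.00589). Orm1 and Orm2 share 47 of 676 stretches of 100 bases in their transcripts (6.95%), so the division of some reads between them is uncertain. Shorter or near-identical stretches were not compared.

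Lcn2, whose product binds bacterial siderophores, was higher in liver at 30 nmol/kg BI 456906. It ran from 27.4 through 64.8 to 74.9 TPM in vehicle and from 78.9 through 143 to 209 TPM at 30 nmol/kg, with no overlap (log2 difference 1.22, standard error 0.50, adjusted p = 0.0357). The call was lost on leaving out vehicle library 44 or 47 or BI 456906 library 67, 69 or 71, with adjusted p-values of 0.0575 to 0.0850. At 20 nmol/kg the median was 64.5 TPM and the highest library 394 TPM, and the group did not pass (adjusted p = 0.308). Apcs, the serum amyloid P gene, ran from 102 to 144 TPM at 30 nmol/kg against 68.3 to 100 TPM in vehicle. These ranges did not overlap either, but the difference of 0.30 did not pass (adjusted p = 0.267). In a fit of only this group and vehicle, Apcs did pass.

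Saa1 and Saa2, the plasma serum amyloid A genes carried on high-density lipoprotein, varied far more among treated mice than among vehicle mice. Saa1 stayed between 188 and 422 TPM in vehicle, with a median of 373 TPM. In the treated groups the median ran from 385 to 755 TPM, while single libraries reached 2818, 6665 and 2139 TPM at 3, 20 and 30 nmol/kg BI 456906, and 2320 and 1978 TPM at 20 and 100 nmol/kg semaglutide. The group at 10 nmol/kg had no such library, its highest being 593 TPM. Of the 6 libraries per group, 3, 2, 4 and 4 lay above all vehicle libraries at 3, 10, 20 and 30 nmol/kg BI 456906, and 3 and 5 at 20 and 100 nmol/kg semaglutide.

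No comparison of Saa1 or Saa2 with vehicle passed in liver. The difference of Saa1 at 20 nmol/kg was 1.46 on the log2 scale (adjusted p = 0.0735). For that dose the outcome depended on the test: Saa1 passed by edgeR (2.37, adjusted p = 0.00699) and DESeq2 (2.37, adjusted p = 0.00182), as did Saa2 (adjusted p = 0.0407 and 0.0202). Leaving out library 64 (326 TPM) or 66 (368 TPM), the lowest of that group, also let Saa1 pass (adjusted p = 0.0350 to 0.0434). Saa2 ran from 103 through 219 to 272 TPM in vehicle and reached 4127 TPM in library 63. Saa3 ran from 9.07 through 12.96 to 40.03 TPM in vehicle and from 19.4 through 24.8 to 33.1 TPM at 30 nmol/kg (0.68, adjusted p = 0.0533). It passed in 9 of the 42 fits that left out 1 library, among them that without vehicle library 44, which held the 40.03 TPM. Saa3 also passed at this dose with limma on log2(TPM + 1), with sample quality weights and in a fit of only the groups compared.

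The livers that were high in Saa1 were high in Saa2 and often in Lcn2. Across the 42 livers the Pearson correlation of log2 values was 0.96 between Saa1 and Saa2, 0.75 between Saa1 and Lcn2 and 0.63 between Saa1 and Hp, and after subtracting group means it was 0.99, 0.75 and 0.72. Saa1 and Saa3 correlated at 0.21. Library 63 (20 nmol/kg BI 456906) held the highest value of all 42 livers for Saa1, Saa2, Orm1, Lcn2, Hp, Apcs and Itih4. These points share libraries, and the values are a description.

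The genes most like Saa1 across the 42 livers, outside the 10, were Serpina3n (Pearson 0.85), Prg4 (0.73), Prtn3 (0.70), Lrg1 (0.68) and Fgg (0.66). Without library 63 their correlations were 0.81, 0.68, 0.64, 0.64 and 0.60. Serpina3n, Lrg1 and Fgg are themselves counted among acute phase genes.

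**Figure D2:**
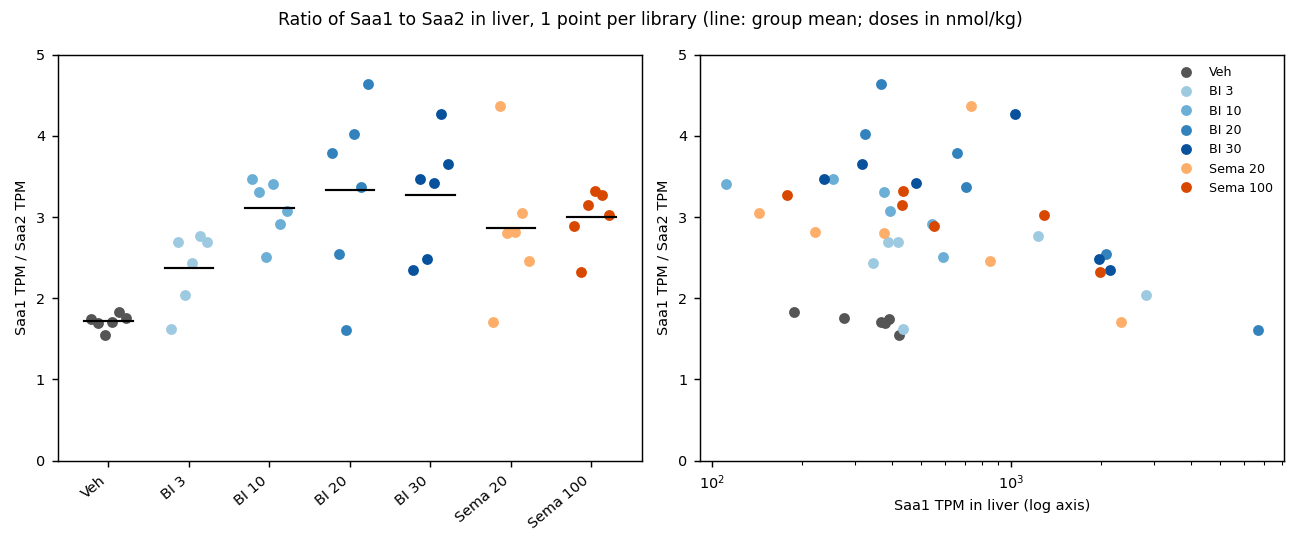
TPM of Saa1 divided by TPM of Saa2 in the 42 livers, 1 point per library, by group with a line at the group mean (left) and against Saa1 TPM on a log axis (right). All 6 vehicle libraries lie between 1.55 and 1.83, libraries at 30 nmol/kg BI 456906 lie between 2.34 and 4.26, and the library with the highest Saa1, 6665 TPM, has a ratio of 1.61.

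Counted together in liver at 30 nmol/kg BI 456906, 5 of 10 members passed, 3 higher (Itih4, Hp and Lcn2) and 2 lower (Orm1 and Crp), where 58.8% of the 15964 genes tested passed, 28.9% higher and 29.9% lower. The ranges of 5 members did not overlap with vehicle, against 29.4% of all genes. The median log2 difference was 0.45 over the members and -0.03 over all genes. At 3 nmol/kg 1 member passed (all genes 13.4%), at 10 nmol/kg 3 (37.5%) and at 20 nmol/kg 2 (45.9%). Semaglutide gave 3 at 20 nmol/kg (46.5%) and 1 at 100 nmol/kg (48.2%). The slope over BI 456906 dose passed for 5 members (58.9%), Itih4, Hp and Lcn2 rising and Orm1 and Crp falling, and that of Lcn2 was lost in 10 of the 42 fits without 1 library.

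The compounds were set against each other in 6 comparisons, 3 per tissue, with p-values adjusted over all genes. At the matched dose of 20 nmol/kg in liver, Hp was higher with BI 456906 than with semaglutide by 0.54 (95% interval 0.34 to 0.73, adjusted p = 0.000574), with no overlap between the groups. Itih4 was higher by 0.50 (0.23 to 0.78, adjusted p = 0.0358), a call lost without any 1 of 7 libraries (61, 62, 63 or 66 of BI 456906 and 75, 76 or 77 of semaglutide, adjusted p up to 0.135). These 2 of 10 members compared with 2.42% of all genes. For the other members no difference passed at this dose, with intervals such as -0.47 to 2.29 for Saa1, -0.19 to 0.48 for Orm1 and -0.30 to 0.09 for Crp.

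Doses differed in the other comparisons. Liver Hp averaged 7616 TPM with 30 nmol/kg BI 456906, against 5151 and 5387 TPM with semaglutide at 20 and 100 nmol/kg. Liver Itih4 averaged 2052, 1453 and 1524 TPM in the same groups, and Crp 255, 341 and 314 TPM. Against semaglutide at 20 nmol/kg 3 members passed (all genes 13.6%), with differences of 0.58 for Hp, 0.51 for Itih4 and -0.43 for Crp. The same 3 passed against 100 nmol/kg (all genes 9.75%), with 0.49, 0.42 and -0.31. In the latter the calls of Crp (adjusted p = 0.0298) and Itih4 (adjusted p = 0.0428) were each lost without single libraries, 6 of them for Crp (71, 72, 79, 80, 82 or 84) and 9 for Itih4 (67, 68, 69, 70, 79, 80, 81, 83 or 84). Because the doses are unequal, these values do not compare the compounds at equal dose. The matched dose did not give equal exposure either, since the study reports lower plasma levels of semaglutide there. No comparison of the compounds was adjusted for plasma level.

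**Figure D3:**
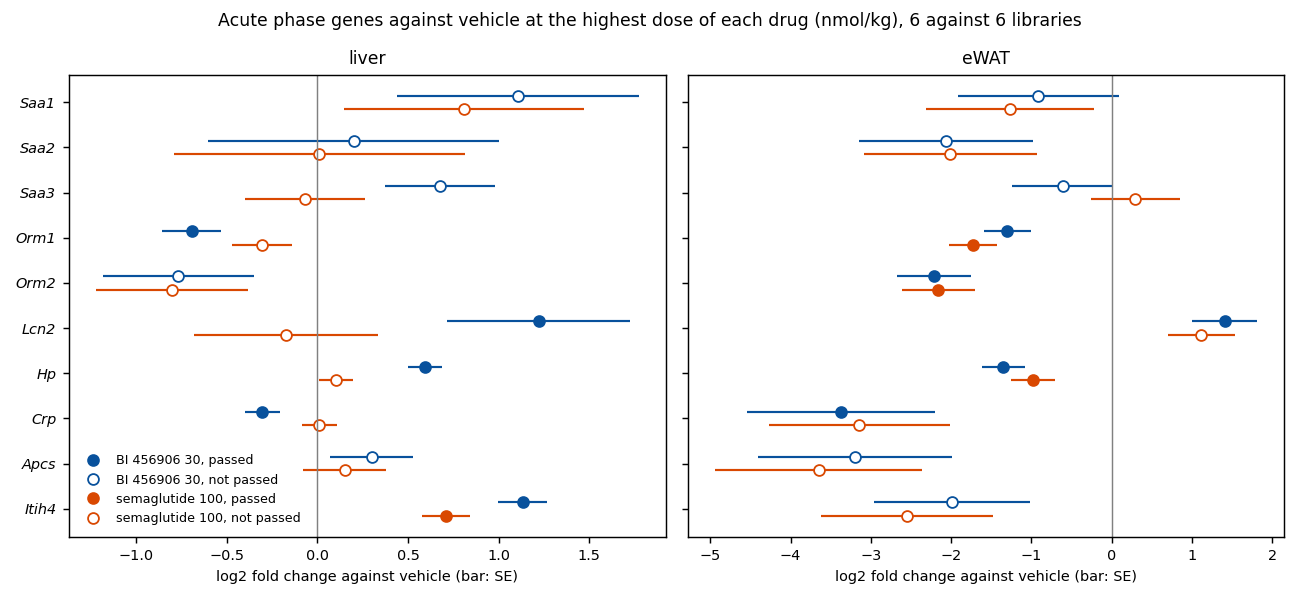
Log2 difference from vehicle for each of the 10 genes in liver (left) and eWAT (right) at 30 nmol/kg BI 456906 (blue) and 100 nmol/kg semaglutide (orange), with bars of 1 standard error and filled points where the adjusted p was at most 0.05. Liver Itih4 is filled for both compounds at 1.13 and 0.71, and eWAT Hp, Orm1 and Orm2 are filled below 0 for both.

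Some eWAT libraries held RNA of liver-restricted genes, and this was gauged first. Alb, the albumin gene made by hepatocytes, ranged from 3.47 to 3680 TPM over the 42 eWAT libraries, against 43236 to 75635 TPM in liver. Within vehicle it was 9.87 TPM in library 1 and 458 to 3680 TPM in the other 5, while at 30 nmol/kg BI 456906 the median was 59.4 TPM and the highest 548 TPM. All 12 hepatocyte markers were detected, with a summed level of 45.2 to 9290 TPM in vehicle and 38 to 1539 TPM at 30 nmol/kg, where 6 of 12 were lower (all genes 13%). For Alb itself the difference at 30 nmol/kg was -3.31 and did not pass (adjusted p = 0.0653), and its slope over BI 456906 dose did (adjusted p = 0.0424). In whole tissue, fewer cells of a type, less RNA per cell and less liver RNA in a sample cannot be told apart by these levels.

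The members split by how closely they followed Alb across eWAT libraries. The Pearson correlation of log2(TPM + 1) was 0.97 for Itih4, 0.93 for Crp, 0.92 for Apcs, 0.83 for Saa1 and 0.82 for Saa2. It was 0.68 for Orm2, 0.60 for Orm1, 0.32 for Hp, -0.07 for Saa3 and -0.20 for Lcn2. By 100000 permutations, adjusted over the 10 members, 8 passed, Hp narrowly (adjusted p = 0.0479), and Saa3 and Lcn2 did not. For Hp the correlation was 0.24 without the 2 libraries farthest from the median Alb and -0.05 after subtracting group means.

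A similar order came from the liver ratio of each gene to Alb. Had each gene entered eWAT with Alb in its liver ratio, that would amount to a median of 81.3% of the measured Crp, 78.4% of Apcs, 63.5% of Itih4, 52.5% of Saa2 and 41.3% of Saa1. The same share was 1.69% for Orm2, 1.27% for Lcn2, 0.842% for Hp, 0.743% for Orm1 and 0.0949% for Saa3. These last shares were larger in the 12 libraries of high Alb, which include every vehicle library but library 1. The medians there were 8.93% for Orm2, 11.6% for Lcn2, 5.35% for Hp, 6.43% for Orm1 and 0.739% for Saa3. The highest were 29.9%, 43.1%, 13.8%, 20.7% and 2.96% in that order. Measured Crp lay within 2-fold of the liver ratio in 35 of 42 libraries, Itih4 in 29, Apcs in 28, Saa1 in 16 and Saa2 in 15. None of the 42 did so for Orm1, Orm2, Lcn2, Hp or Saa3.

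**Figure D4:**
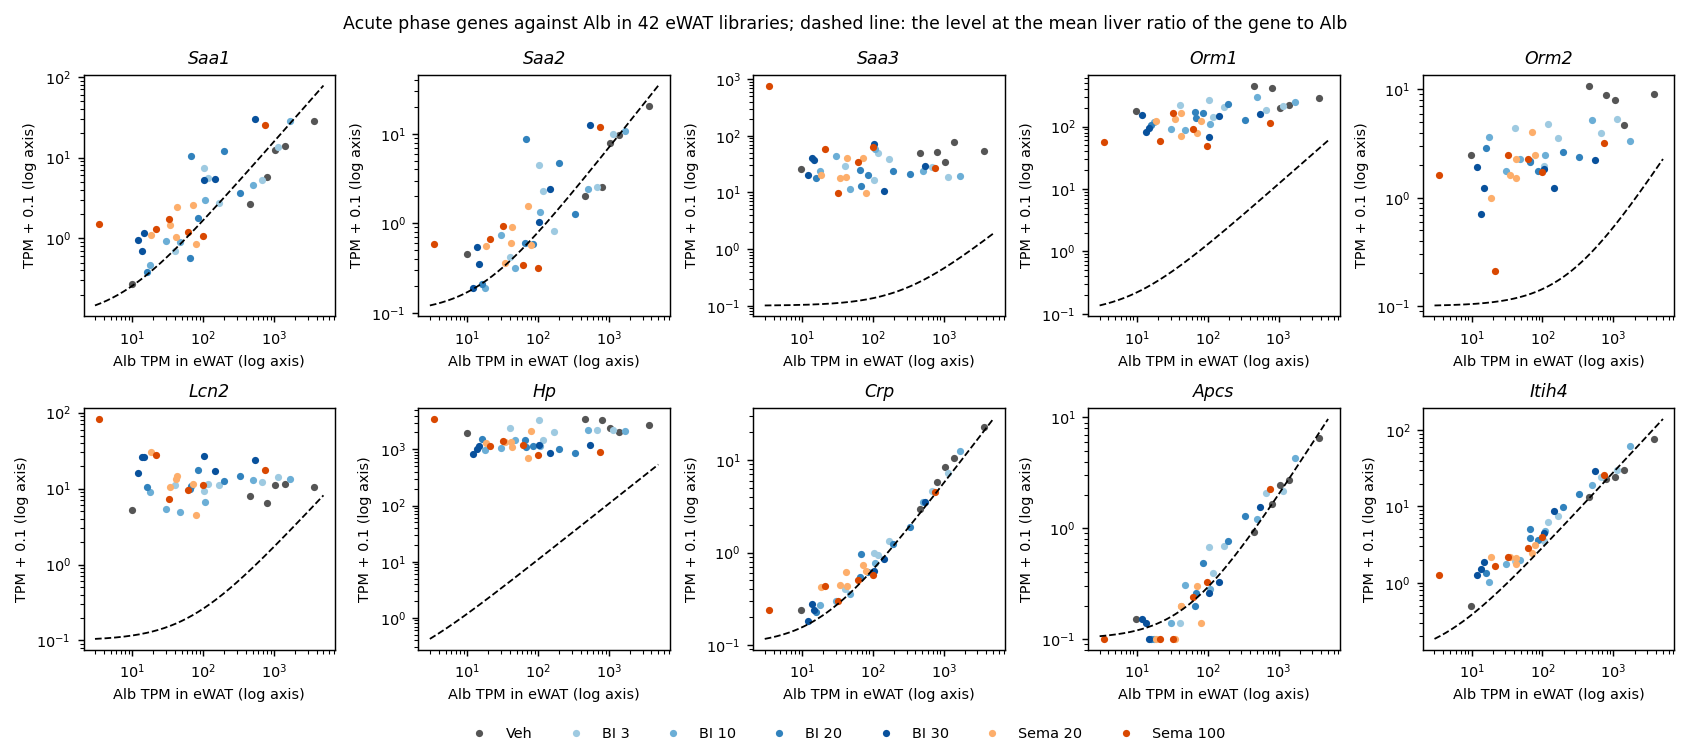
TPM + 0.1 of each of the 10 genes against TPM of Alb in the 42 eWAT libraries, both on log axes, 1 point per library coloured by group, with a dashed line at the level given by the mean liver ratio of the gene to Alb, plus 0.1. Crp, Apcs and Itih4 lie near the line, Saa1 and Saa2 scatter around or above it, and Hp, Orm1, Orm2, Lcn2 and Saa3 lie above it in all 42 libraries.

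Hp, Orm1 and Orm2 fell in eWAT under both compounds. Hp ran from 1962 through 2545 to 3477 TPM in vehicle and from 813 through 1071 to 1196 TPM at 30 nmol/kg BI 456906, without overlap (log2 difference -1.35, standard error 0.27, adjusted p = 0.000564). It also fell at 20 nmol/kg (mean 1194 TPM, -1.19, adjusted p = 0.0106) and with semaglutide at 20 nmol/kg (1331 TPM, -1.05, adjusted p = 0.0173) and 100 nmol/kg (1488 TPM, -0.98, adjusted p = 0.0150). The semaglutide calls were lost without single libraries, vehicle 5 or 6 or semaglutide 36 at the lower dose and semaglutide 41 at the higher one. Semaglutide library 40 held 3476 TPM, within the vehicle range.

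Orm1 ran from 176 through 256 to 454 TPM in vehicle eWAT and from 68.7 through 122 to 161 TPM at 30 nmol/kg BI 456906 (log2 difference -1.30, adjusted p = 0.00174). With semaglutide its mean was 115 TPM at 20 nmol/kg (-1.32, adjusted p = 0.00496) and 89.7 TPM at 100 nmol/kg (-1.73, adjusted p = 0.000165). At 30 nmol/kg BI 456906 and at 20 and 100 nmol/kg semaglutide no library reached the lowest vehicle value. Orm2, far less abundant, ran from 2.39 through 8.32 to 10.8 TPM in vehicle and from 0.61 through 1.45 to 2.12 TPM at 30 nmol/kg (-2.21, adjusted p = 0.000724). It passed at 20 nmol/kg BI 456906 (-1.60, adjusted p = 0.0239, lost without library 5, 6, 23 or 24) and with semaglutide at 20 nmol/kg (-1.78, adjusted p = 0.00897) and 100 nmol/kg (-2.16, adjusted p = 0.00145).

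With Alb as a covariate, the differences at 30 nmol/kg BI 456906 were -1.41 for Hp (adjusted p = 0.00136), -0.96 for Orm1 (adjusted p = 0.0178) and -1.68 for Orm2 (adjusted p = 0.00600). After the liver profile, scaled to Alb, had been taken off each library they were -1.29, -1.18 and -1.54, and all 3 passed. At 100 nmol/kg semaglutide with the covariate they were -1.04, -1.37 and -1.55 in the same order, and all 3 passed. At 20 nmol/kg semaglutide with the covariate Hp passed (-1.11, adjusted p = 0.0415), while Orm1 (adjusted p = 0.0757) and Orm2 (adjusted p = 0.134) did not, and at 20 nmol/kg BI 456906 Orm2 did not either (-1.20, adjusted p = 0.0828). Leaving out the 12 libraries of high Alb, which leaves vehicle library 1 alone, ended every call. The differences at 30 nmol/kg BI 456906 were then -1.003 for Hp (adjusted p = 0.312), -0.78 for Orm1 (adjusted p = 0.380) and -1.04 for Orm2 (adjusted p = 0.521).

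Lcn2 rose in eWAT at 30 nmol/kg BI 456906, as it did in liver. It ran from 5.05 through 9.19 to 11.3 TPM in vehicle and from 16.1 through 24.8 to 26.8 TPM at 30 nmol/kg, without overlap (log2 difference 1.41, adjusted p = 0.0109, and 1.36, adjusted p = 0.0317, with Alb as a covariate). At 100 nmol/kg semaglutide the range was 7.22 through 14.4 to 82.5 TPM, and the difference of 1.12 did not pass (adjusted p = 0.0628). Lcn2 did pass there by edgeR (1.63, adjusted p = 0.00569), by DESeq2 (1.62, adjusted p = 0.000864) and by limma with the liver profile taken off (1.24, adjusted p = 0.0191). Library 40 held the 82.5 TPM, and the other 5 libraries of that group held 7.22 to 27.98 TPM. Without the 12 libraries of high Alb the difference at 30 nmol/kg BI 456906 was 2.09 and did not pass (adjusted p = 0.307). Markers of mesothelium, the epithelium that lines the fat pad, were summed as well. They came to 15.2 to 187 TPM in vehicle and 80.3 to 242 TPM at 30 nmol/kg, ranges that overlap. Of those 8 markers 5 were higher (all genes 10.9%), among them Upk1b (2.11), Upk3b (1.93), Msln (1.85) and Krt19 (1.45). Neutrophil markers summed to 22.5 to 34.1 TPM in vehicle and 10.5 to 16.2 TPM at 30 nmol/kg, with S100a8 lower (-1.95) and Ly6g, Cxcr2, Ngp, Camp and Mpo at medians under 0.1 TPM. Lcn2 was not set against these markers library by library. The part of these or other cell types, adipocytes included, in the Lcn2 difference was not tested.

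Crp passed in eWAT at 30 nmol/kg BI 456906, and the call went with Alb. Crp ran from 0.14 through 6.995 to 22.8 TPM in vehicle and from 0.08 through 0.355 to 3.43 TPM at 30 nmol/kg (log2 difference -3.37, standard error 1.17, adjusted p = 0.0333). The lowest vehicle value belonged to library 1, the vehicle library of low Alb. With Alb as a covariate the difference was -0.44 (adjusted p = 0.184), and the call was also lost without library 2, 3, 4, 25, 26 or 30. Apcs (-3.19, adjusted p = 0.0503), Itih4 (-1.99, adjusted p = 0.133) and Saa2 (-2.06, adjusted p = 0.164) did not pass. Leaving out library 1 made all 3 pass, so that 8 of 10 members passed at this dose. Apcs was read so seldom that 19 of the 42 eWAT libraries held 3 reads or fewer.

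Saa1 and Itih4 took the opposite sign once Alb was in the model. At 30 nmol/kg BI 456906 Saa1 differed by -0.92 without the covariate (adjusted p = 0.536) and by 2.004 with it (adjusted p = 0.0301). Itih4 differed by 0.76 with the covariate (adjusted p = 0.00773). Neither passed with the liver profile taken off instead (0.66, adjusted p = 0.571, for Saa1 and -0.50, adjusted p = 0.542, for Itih4), so the positive calls rest on the covariate fit. Saa3, the serum amyloid A gene of adipocytes and macrophages, ran from 25.3 through 50.2 to 78.98 TPM in vehicle and from 10.7 through 33.5 to 71.1 TPM at 30 nmol/kg, and did not pass (-0.61, adjusted p = 0.506). At 100 nmol/kg semaglutide its median was 45.96 TPM and library 40 reached 770 TPM. That difference did not pass by limma/voom (0.30, adjusted p = 0.758) but did by edgeR (1.79, adjusted p = 0.0464) and DESeq2 (1.78, adjusted p = 0.0191). Macrophage markers summed to 1376 to 3091 TPM in vehicle and 1714 to 3537 TPM at 30 nmol/kg.

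**Figure D5:**
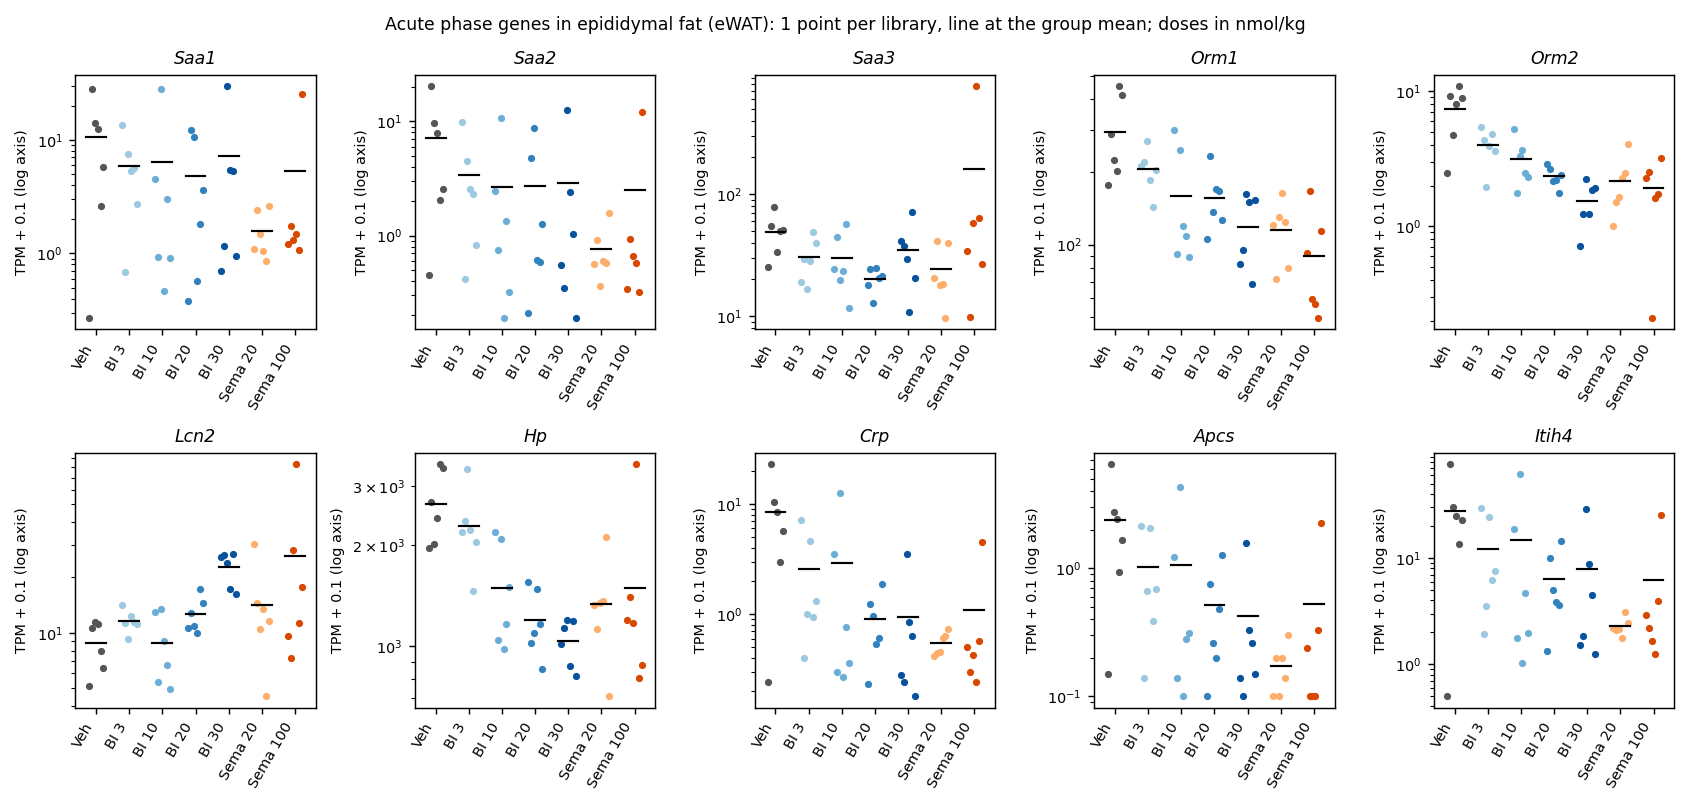
TPM + 0.1 of the 10 genes in eWAT on log axes, 1 panel per gene, with 1 point per library and a line at each group mean. Hp, Orm1 and Orm2 at 30 nmol/kg BI 456906 lie below all vehicle points, Lcn2 lies above them, and Crp, Apcs, Itih4, Saa1 and Saa2 spread widely within vehicle.

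Counted as a set in eWAT, 5 of 10 members passed at 30 nmol/kg BI 456906, 1 higher (Lcn2) and 4 lower (Hp, Orm1, Orm2 and Crp), where 23.9% of the 18536 genes tested passed, 10.9% higher and 13% lower. The ranges of 4 members did not overlap with vehicle, against 6.31% of all genes. The median log2 difference was -1.67 over the members and -0.03 over all genes, a value that includes the members that followed Alb. At 20 nmol/kg 2 members passed (all genes 4.27%), and with semaglutide 3 passed at 20 nmol/kg (6.33%) and 3 at 100 nmol/kg (14.9%). The slope over BI 456906 dose passed for 6 members (29.5%), Hp, Orm1, Orm2, Crp and Apcs falling and Lcn2 rising. The slope of Apcs was lost in 33 and that of Crp in 13 of the 42 fits without 1 library.

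By limma/voom 0 members passed in eWAT at 3 nmol/kg (all genes 0.00539%) and at 10 nmol/kg (0.513%). At an unadjusted p under 0.05 these were 1 (Orm2) and 4 (Orm1, Orm2, Hp and Crp), and edgeR and DESeq2 called 0 at either dose. Between the compounds 0 members passed at 20 nmol/kg of each (all genes 0%), at 30 against 20 nmol/kg semaglutide (0%) and at 30 against 100 nmol/kg (0.0108%). At an unadjusted p under 0.05 the counts were 0, 1 (Lcn2) and 0, edgeR called 0 in all 3, and DESeq2 called 0, 0 and 1. At the matched dose the 95% intervals still ran from -0.66 to 0.38 for Hp, from -0.16 to 1.01 for Orm1 and from -0.83 to 0.85 for Lcn2.

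Hp rose in liver and fell in eWAT at 30 nmol/kg BI 456906, while at 100 nmol/kg semaglutide it fell in eWAT and did not pass in liver. The difference between its liver and eWAT responses was 1.84 on the log2 scale at 30 nmol/kg BI 456906 (adjusted p = 1.14e-06, a test of the difference itself over 84 libraries) and 1.03 at 100 nmol/kg semaglutide (adjusted p = 0.00665). Orm1 differed between tissues with semaglutide at 100 nmol/kg (1.37, adjusted p = 0.00220), and at 30 nmol/kg BI 456906 its difference of 0.50 did not pass (adjusted p = 0.258). Crp, Apcs and Itih4, the members that followed Alb in eWAT, differed by 2.97, 3.39 and 3.02 with BI 456906 and by 3.11, 3.75 and 3.21 with semaglutide. In all, 4 of 10 members passed with BI 456906 (all genes 45.9%) and 5 with semaglutide (33.9%). Lcn2 did not differ by this test with BI 456906 (-0.30, adjusted p = 0.787), with a standard error of 0.80.

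Other acute phase genes moved in liver in both directions. Of 21 further positive acute phase genes tested, 13 were higher, 3 lower and 5 did not pass at 30 nmol/kg BI 456906, where 58.8% of all genes passed, and the median was 0.87 against -0.03 over all genes. The metallothioneins Mt2 (4.10) and Mt1 (2.92), which bind zinc and copper, and Hamp (2.05), the iron hormone hepcidin, rose most. Orm3, a neighbour of Orm1 and Orm2, fell from 8.42 to 0.515 TPM (-4.26). At 100 nmol/kg semaglutide the counts were 13 higher, 5 lower and 3 not passing, where 48.2% of all genes passed.

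Among 8 negative acute phase genes of liver, 3 were higher and 2 lower at 30 nmol/kg BI 456906 (all genes 28.9% higher and 29.9% lower), with Ahsg (0.76), Apoa1 (0.31) and Alb (0.30) higher and Ttr (-0.42) lower. Of 20 cytokine, receptor and transcription factor genes tested, 11 were higher and 4 lower. The cytokine genes Tnf (-2.36) and Il1b (-2.01) were lower, and the receptor genes Il1r1 (2.34) and Il6ra (1.14) higher. Hepatocyte markers stood at 6 higher, 2 lower and 4 not passing of 12, and macrophage markers at 2, 3 and 3 of 8.

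In eWAT fewer genes of these lists passed, as over all genes (23.9% at 30 nmol/kg BI 456906). Of 21 positive acute phase genes, 3 were higher and 5 lower at that dose, with Hpx (-3.33) and Itih3 (-2.34) lower and Mt2 (1.24) and Mt1 (1.20) higher. Of 8 negative acute phase genes 2 were lower, Ttr (-3.96) and F12 (-3.80). Ttr lay within 2-fold of its liver ratio to Alb in 42 of 42 eWAT libraries, a median share of 70.9%. That share was not computed for F12, Hpx or Itih3, and the part of liver RNA in these differences was not tested. Of 23 cytokine, receptor and transcription factor genes 5 were higher and 2 lower, with Cebpd (1.84), Nfkbia (0.81) and Il1r1 (0.67) higher and Tnf (-1.42) lower. Adipocyte markers were present in every eWAT library, and 6 of 8 did not pass, with Lep (-1.90) lower and Cfd (1.60) higher.

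Saa3 in eWAT was most like Retnlg (Pearson 0.83), Tmem26 (0.77), Tgm1 (0.77), Il1r2 (0.76) and Mxd1 (0.74). Semaglutide library 40 carried much of this: without it the correlations were 0.65, 0.49, 0.48, 0.43 and 0.38.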

How the data were processed

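RNA-seq had been run on 42 liver and 42 eWAT libraries. The deposited values, per the labels' processing notes, came from STAR 2.5.2b, featureCounts 1.5.1, RSEM 1.3.0 and FastQC 0.11.5 on mm10/GRCm38. The signal values the authors deposited are read counts divided by 1 factor per library: whole reads were recovered for 100% of values (tolerance 0.001), giving 21676902 to 53869104 reads in liver and 37573004 to 53996914 in eWAT. The TPM values were deposited beside them and are used for levels. The labels describe SMART-Seq v4 single-end libraries for both tissues, whereas the study's methods describe poly(A)-selected directional paired-end libraries for liver, and which applies was not settled. Overlapping genes can share reads: Crp overlaps the pseudogene Gm38051, which lies on the same strand, so counting by strand would not separate them. Of the 48794 identifiers 48348 had a GENCODE symbol.

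Each tissue was fitted once (R 4.3.3, limma 3.58.1, edgeR 4.0.16): TMM factors, filterByExpr, voom on the deposited values with a pseudocount of 0.5, 7 group means, 35 residual degrees of freedom, Benjamini-Hochberg adjustment over 15964 genes in liver and 18536 in eWAT. A fit over all 84 libraries tested the difference between tissues on 15297 genes. Alternatives were other factors, filters, weights and sample sets, edgeR's quasi-likelihood test and DESeq2 1.42.0 on recovered reads, limma on log2(TPM + 1) or log2(TPM + 0.1), and leaving out each library. The Alb analyses added a covariate and a fit without 12 libraries above 3 times the median Alb. No pair of libraries within a group agreed within counting noise. The scripts were tested on simulated data. All 10 members are named, with up to 4 genes per other list by size of change among those passing at 30 nmol/kg BI 456906, and the 5 genes most correlated with Saa1 in liver and Saa3 in eWAT. The members and lists were chosen with earlier results of these data known.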

Additional observations from a re-analysis of the deposited data

Results flagged for a closer look

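Values set apart from the other 5 libraries of their group by Dixon's test at the 95% level numbered 32 in 140 groups of 6. Of these, 14 were in liver and 18 in eWAT. The nominal rate of 1 in 20 holds for independent groups of normally distributed values. Here TPM was used without a log, and the same libraries recur for genes that vary together. The 32 can therefore not be judged against that rate. In liver, library 51 (3 nmol/kg BI 456906) stood apart for Saa1 (2818 TPM), Saa2 (1380 TPM) and Lcn2 (293 TPM), and library 63 (20 nmol/kg) for Saa1 (6665 TPM), Saa2 (4127 TPM), Lcn2 (394 TPM) and Orm2 (79.98 TPM). Library 73 (20 nmol/kg semaglutide) stood apart for Saa1 (2320 TPM), Saa2 (1357 TPM) and Orm1 (851 TPM). Orm2 stood apart in library 49 (39.9 TPM) and library 82 (129.8 TPM), Saa3 in vehicle library 44 (40.03 TPM), and Crp, as the lowest value, in vehicle library 48 (268 TPM).

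In eWAT the members that followed Alb stood apart in the same libraries, 15 (10 nmol/kg BI 456906), 27 (30 nmol/kg) and 42 (100 nmol/kg semaglutide), in which Alb was 1705, 548 and 747 TPM. Saa1 was 28.2, 29.7 and 25.1 TPM there, Saa2 10.7, 12.5 and 11.95 TPM, and Crp 12.4, 3.43 and 4.40 TPM. Apcs was 4.22, 1.47 and 2.16 TPM and Itih4 61.2, 29.1 and 25.6 TPM. Library 40 (100 nmol/kg semaglutide) stood apart for Saa3 (770 TPM), Lcn2 (82.5 TPM) and Hp (3476 TPM).

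The response in liver minus that in eWAT passed the test of the difference for Hp (1.84), Crp (2.97), Apcs (3.39) and Itih4 (3.02) at 30 nmol/kg BI 456906, and for Orm1 (1.37), Hp (1.03), Crp (3.11), Apcs (3.75) and Itih4 (3.21) at 100 nmol/kg semaglutide, all on the log2 scale.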

How the results depend on the processing

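Counts of the 10 members passing were recomputed under other tests, filters, weights, scalings and sample sets. Of 319 recomputed counts, 268 lay within 1.5 times the reported one. This compares how many members passed and not which, and 0 against 0 is taken as within. For the eWAT slope over dose, Alb as a covariate gave 6 members again, with 4 shared. Apcs and Crp were lost, and Itih4 and Saa1 gained. In liver, the count at 3 nmol/kg BI 456906 was 0 in a fit of only the groups compared, at 10 nmol/kg it was 1 with limma on log2(TPM + 1) and no filter, and at 20 nmol/kg it was 4 by edgeR and 4 by DESeq2. It was 2 for 100 nmol/kg semaglutide with sample quality weights, and 1 between the compounds at 20 nmol/kg in a fit of only those groups. In eWAT, sample quality weights gave 4, 4 and 8 at 10, 20 and 30 nmol/kg BI 456906, 7 and 6 at 20 and 100 nmol/kg semaglutide, and 1 for 30 nmol/kg against either semaglutide dose. edgeR gave 4, 6 and 6, and DESeq2 4, 8 and 7, at 20 nmol/kg BI 456906 and 20 and 100 nmol/kg semaglutide, and DESeq2 gave 1 for 30 nmol/kg against 100 nmol/kg semaglutide. Limma on log2(TPM + 1) and log2(TPM + 0.1) gave 5 at either semaglutide dose, and log2(TPM + 1) with no filter gave 5 at 20 nmol/kg. Requiring 10 in every library, which drops Saa1, Saa2, Orm2, Crp and Apcs, gave 1 and 3 at 20 and 30 nmol/kg BI 456906, 3 for the slope, and 2 and 3 for the tissue difference with BI 456906 and semaglutide. Only the groups compared gave 1 at 20 nmol/kg BI 456906, 1 at 100 nmol/kg semaglutide, and 2 and 3 for the tissue differences. Alb as a covariate gave 1 at 20 nmol/kg of either compound. Without the 12 libraries of high Alb, 0 passed at 20 and 30 nmol/kg BI 456906, at either semaglutide dose and for the slope, with differences at 30 nmol/kg of -1.003 for Hp, -0.78 for Orm1, -1.04 for Orm2 and 2.09 for Lcn2 and at 100 nmol/kg semaglutide of -0.47, -1.19 and -1.11 for the first 3. That fit leaves vehicle library 1 alone, assumed to vary like the other groups, and edgeR and DESeq2 were not run on it. Except for the high-Alb subset, where its own construction leaves 1 vehicle library, and the filter that drops members, the cause was not tested.

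In fits without 1 library, the counts ran in liver from 2 to 4 at 20 nmol/kg BI 456906 (4 without library 64), from 1 to 2 at 100 nmol/kg semaglutide (2 without library 82), from 1 to 2 between the compounds at 20 nmol/kg (1 without library 61) and from 1 to 4 for 30 nmol/kg against 100 nmol/kg semaglutide (1 without library 79). In eWAT they ran from 0 to 4, 1 to 6 and 4 to 8 at 10, 20 and 30 nmol/kg BI 456906 and from 2 to 7 and 2 to 6 at 20 and 100 nmol/kg semaglutide, the highest each time without vehicle library 1. The direction turned for Crp in eWAT at 30 nmol/kg BI 456906 (0.80) and for its slope (0.0331) without the libraries of high Alb, and for the slope of Apcs with Alb as a covariate (0.00624). Of 492 recomputed values for single genes, 36 kept their direction but no longer passed. No paired analysis was possible because the labels number eWAT and liver libraries separately and the groups share no replicate numbers. Precision was limited by low read counts of some members in eWAT. There 19 libraries for Apcs, 9 for Saa2 and 1 each for Saa1, Orm2 and Crp held 3 reads or fewer. The depth of the libraries was not lower in eWAT, with a median of 46475069 reads against 43179390 in liver.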

Other observations

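The ratio of Saa1 to Saa2 in liver differed between vehicle and treated mice, a comparison added after the values had been seen. The ratio of TPM was 1.55 to 1.83 in vehicle. It was 1.62 to 2.77, 2.51 to 3.47, 1.61 to 4.64 and 2.34 to 4.26 at 3, 10, 20 and 30 nmol/kg BI 456906, and 1.71 to 4.36 and 2.33 to 3.31 at 20 and 100 nmol/kg semaglutide. By a two-sided exact permutation test (924 arrangements), the difference in mean log2 ratio was 0.45 (p = 0.0130), 0.85 (p = 0.00217), 0.88 (p = 0.0130), 0.90 (p = 0.00217), 0.69 (p = 0.0108) and 0.80 (p = 0.00217) in that order. Adjusted over the 6 comparisons the exact p-values were 0.00433 to 0.0130, and 0.00217 is the smallest the test can give. All 6 libraries lay above every vehicle library in the groups at 10 and 30 nmol/kg BI 456906 and at 100 nmol/kg semaglutide, and 5 of 6 in the others. Libraries with very high Saa1 had low ratios, 1.61 in library 63, 1.71 in library 73 and 2.04 in library 51. No stretch of 100 bases was shared exactly between the Saa1 and Saa2 transcripts. Shorter or near-identical stretches were not compared, so whether reads were divided rightly between these genes was not tested.

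Library 40 of eWAT (100 nmol/kg semaglutide) held the highest Saa3 (770 TPM), Lcn2 (82.5 TPM) and Lrg1 (495 TPM) of the 42 eWAT libraries. Its neutrophil markers summed to 525 TPM, and Il6, Il1b, Socs3, S100a9 and Ptx3 stood at 125, 202, 354, 267 and 112 TPM. Its Alb was the lowest of the 42, at 3.47 TPM.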
